A study of Mus musculus with 32 samples.

Results

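AA467197, also named Nmes1 (ENSMUSG00000033213), is 1 of 12451 genes counted in YUMM3.3 mouse melanoma cells that were exposed to IFN-γ, to Activin-A or to both. The gene was chosen by its levels in these same wells, which had been seen before: high with IFN-γ, and different with Activin-A and with time. Its levels and fold changes are therefore a description, given without a test, and tests are applied to other genes only. AA467197 was counted in each of the 32 wells, with 127 to 1045 counts per well, and passed the filter on low counts at both times.

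mRNA was quantified by BRB-seq, a bulk RNA-seq method that tags the mRNA of each well with a barcode near its 3′ end, pools the wells and sequences them together. Cells of the single line YUMM3.3, a Braf mutant mouse melanoma line, were left untreated or received IFN-γ at 20 ng/ml, Activin-A at 40 ng/ml, or both factors at those doses, which are those of the labels. The study's text gives a higher Activin-A dose in places, and the labels were followed. Each condition was sampled at 4 hrs and at 12 hrs with 4 wells, which makes 8 groups, and no agent or allele other than the 2 factors separates them. The labels do not say that the wells came from separate experiments, so that p-values measure the spread between wells, which may be technical. The well labelled Activin-A replicate 1 at 4 hrs stood apart from the other 3 of its group over all genes, with a chi-square per gene of 2.45 to 2.89 against them and of at most 1.54 in every other pair of wells of a group. It was also the deepest well. The log2FC of AA467197 and the calls of named genes between treatments that rest on it are also given without it. Calls of named genes between 4 and 12 hrs are given with it only. Values are CPM, the counts of a gene scaled to a common library size, after TMM normalization, a scaling that evens out differences in library composition between wells.

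IFN-γ is a cytokine of T and NK cells that signals through its receptor and JAK kinases, whereas Activin-A is a TGF-β family ligand that signals through Smad proteins. AA467197 is the mouse counterpart of human C15orf48 and encodes a small mitochondrial protein related to NDUFA4. NDUFA4 is a subunit of complex IV (cytochrome c oxidase), the last enzyme of the respiratory chain, and the AA467197 protein can take its place there in inflamed cells, for which it is best known in macrophages and epithelia. The same transcript is also the host of the microRNA miR-147, which lies in its 3′ UTR.

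In the GRCm38 annotation AA467197 spans chr2:122636986-122641191 on the plus strand and has 4 annotated transcripts with 3 to 6 exons. The Mir147 hairpin at chr2:122640803-122640881 falls in the last exon of 3 of the 4 transcripts and in the 3′ UTR of the transcript with 5 exons. It was the only other annotated gene that overlapped the locus, and its own counts were not analysed here. A count for AA467197 thus cannot be assigned to 1 of the transcripts, and it does not measure the mature microRNA. The RefSeq (GRCm38.p6) sequences below are a stretch upstream of a transcript start and a microRNA arm encoded in the transcript. Whether the first regulates the gene was not tested. Capitals mark a match to the AP-1 motif in the first and the seed, bases 2 to 8, in the second.
AA467197 promoter window, chr2:122637755-122637849, plus strand: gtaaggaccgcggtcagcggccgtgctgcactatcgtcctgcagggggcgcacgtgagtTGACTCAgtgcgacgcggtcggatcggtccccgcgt
mmu-miR-147-5p, chr2:122640814-122640837, plus strand: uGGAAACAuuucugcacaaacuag

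The promoter was searched from 250 bases before to 50 bases after the RefSeq start at position 122637887, on both strands, and the same was done for 32851 start-site windows of the same length. The interferon-stimulated response element, or ISRE, had 0 matches, while 3.44% of all windows held it. Its letters were absent from this window, which says nothing on whether a factor binds the gene. The AP-1 motif (TGANTCA) matched 1 time, 73 bases before the start, and was held by 7.81% of windows. The short Smad motif (CAGAC) matched 1 time, 182 bases before the start, and the loosely defined kappaB motif 1 time, 24 bases before it, but such matches occurred in 49.6% and 50.8% of windows. The AP-1 match does not overlap the other matches. The printed window lies upstream of the first exon of the transcript with 5 exons and within an intron of the one with 6 exons.

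AA467197 was high in every well that received IFN-γ, by 2.75- to 3.59-fold in the fits against untreated cells of the same time, and the wells fell into a low and a high range with a wide gap. In untreated cells at 4 hrs, AA467197 stood at 205, 217, 205 and 226 CPM (mean 213 ± 10.2, SD, n = 4). With IFN-γ for 4 hrs it stood at 776, 762, 782 and 727 CPM (mean 762 ± 24.8, SD, n = 4). The lowest IFN-γ well was thus far above the highest untreated well, and no value fell between the groups. The log2FC was 1.84 ± 0.07 (SE), a 3.59-fold difference that ranked 103 from the highest among 9137 genes tested at 4 hrs. Wells did not overlap and were higher with IFN-γ for AA467197 and, in the same comparison, for 6.04% of all genes tested.

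At 12 hrs both the untreated and the IFN-γ wells were higher than at 4 hrs. Untreated cells gave 308, 280.5, 318 and 319 CPM (mean 307 ± 18.0, SD, n = 4). Cells with IFN-γ gave 973, 949, 815 and 869 CPM (mean 901 ± 73.0, SD, n = 4), again without overlap. The log2FC was 1.55 ± 0.07, or 2.94-fold, at rank 149 of 8971 genes, and the share of all genes with higher, non-overlapping wells was 7.88%. In a bulk well, more cells with the transcript cannot be told apart from more transcript per cell, and a CPM is a share of the mRNA of the well rather than an amount.

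**Figure D1:**
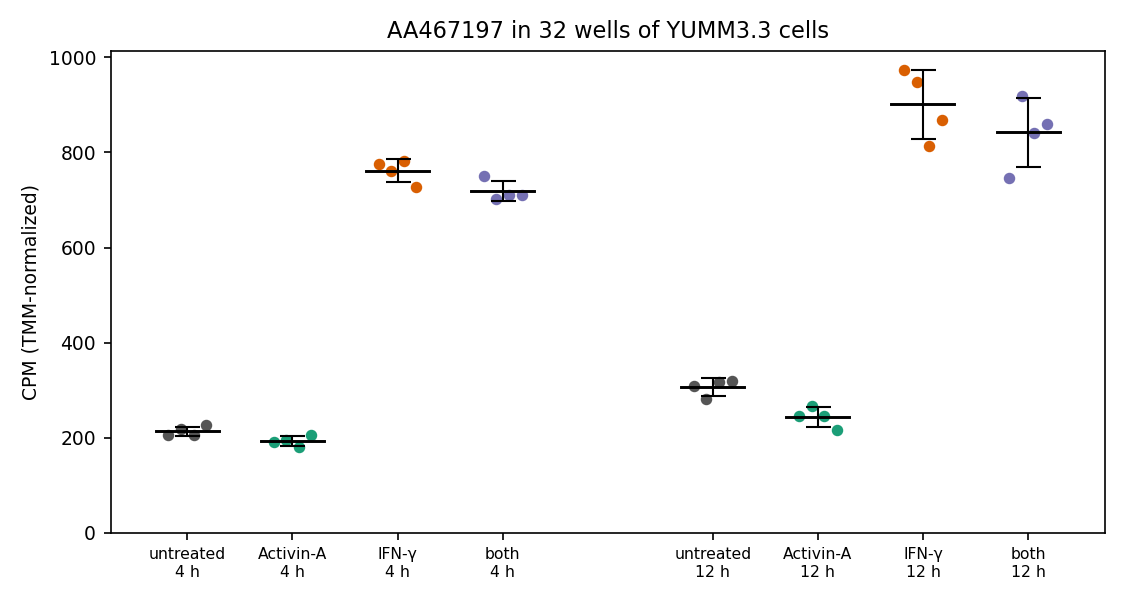
Level of AA467197 in CPM (y axis, from 0) in each of the 32 wells by treatment and time (x axis), with horizontal lines for group means and error bars for SD, n = 4 wells. The 16 wells with IFN-γ sit between 703 and 973 CPM, and the 16 wells without it between 181 and 319 CPM.

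Activin-A alone went with lower AA467197, slightly at 4 hrs and more clearly at 12 hrs. At 4 hrs the Activin-A wells held 190.0, 194, 181 and 206 CPM (mean 193 ± 10.5, SD, n = 4). The highest of them, 206 CPM, overlapped with the lowest untreated wells at 205 CPM. The log2FC was -0.14 ± 0.08, and -0.14 also without Activin-A replicate 1, whose 190.0 CPM lay within the range of the other 3 wells.

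After 12 hrs with Activin-A the wells held 245, 267, 245 and 217 CPM (mean 243 ± 20.6, SD, n = 4). Each of these was below the lowest untreated well at 12 hrs, 280.5 CPM. The log2FC was -0.33 ± 0.08, or -20.2%, which placed AA467197 at rank 635 from the lowest of 8971 genes. Lower, non-overlapping wells were found for 3.28% of all genes in this comparison. The log2 effect of Activin-A at 12 hrs minus that at 4 hrs was -0.17 ± 0.11 (-0.19 without Activin-A replicate 1 at 4 hrs).

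With both factors AA467197 stayed in the high range, slightly below IFN-γ alone. At 4 hrs the wells with both factors held 750.5, 703, 711 and 711 CPM (mean 719 ± 21.4, SD, n = 4), and at 12 hrs 747, 919.7, 842 and 859.98 CPM (mean 842 ± 71.8, SD, n = 4). At either time these wells overlapped with those of IFN-γ alone. The log2FC of both factors against IFN-γ alone was -0.08 ± 0.06 at 4 hrs and -0.10 ± 0.06 at 12 hrs.

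Against the other 2 references the wells with both factors did not overlap at all. Compared to Activin-A alone, AA467197 was 3.74-fold higher at 4 hrs (log2FC 1.90 ± 0.07, rank 91 of 9137, and 1.90 without Activin-A replicate 1) and 3.45-fold higher at 12 hrs (1.78 ± 0.07, rank 121 of 8971). Higher, non-overlapping wells were seen for 6.19% of all genes at 4 hrs and for 7.12% at 12 hrs. Compared to untreated cells, AA467197 was 3.38-fold higher at 4 hrs (1.76 ± 0.07) and 2.75-fold higher at 12 hrs (1.46 ± 0.07), with shares of 6.91% and 7.57% of all genes. These comparisons share wells with those of the single factors, and their values are therefore set side by side and not combined.

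**Figure D2:**
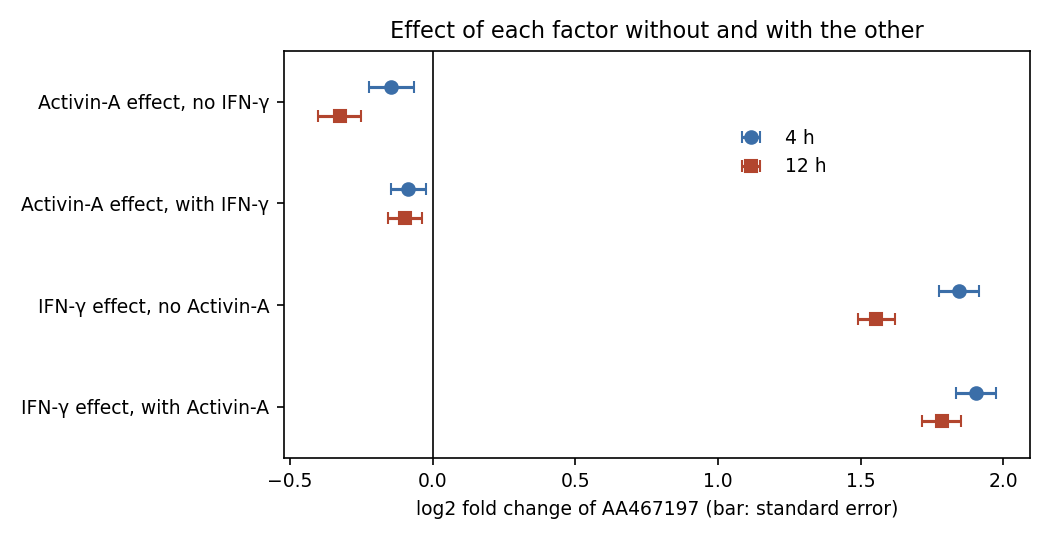
log2 fold change of AA467197 (x axis) for each factor without and with the other (rows), at 4 hrs (circles) and 12 hrs (squares), with bars for the standard error of the fit. The IFN-γ effects lie between 1.55 and 1.90, and the Activin-A effects between -0.33 and -0.08.

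How the factors combined depends on the scale on which they are read. At 12 hrs the difference between means with Activin-A was -63.1 CPM without IFN-γ and -59.3 CPM with it. The second value rests on single wells, as it ran from -88.2 CPM without IFN-γ replicate 3 to -27.4 CPM without both-factor replicate 1, and the wells with both factors had an SD of 71.8 CPM. As a share of the level, this was -20.2% without IFN-γ and -6.41% with it. Adding the single differences to the untreated level gives 838 CPM for both factors, and multiplying the single folds gives 716 CPM, against an observed mean of 842 CPM. With a well left out in turn these ran from 814 to 867 CPM, from 693 to 742 CPM and from 816 to 874 CPM. On the log2 scale the Activin-A effect was 0.23 ± 0.10 less negative with IFN-γ than without.

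At 4 hrs the Activin-A difference was -20.6 CPM without IFN-γ and -42.8 CPM with it, and the latter ran from -54.5 to -36.1 CPM with a well left out. Added differences give 741 CPM and multiplied folds 688 CPM, on either side of the observed 719 CPM, whose wells had an SD of 21.4 CPM. The log2 effects with and without IFN-γ differed by 0.06 ± 0.10, and by 0.06 also without Activin-A replicate 1.

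Placed in order of their mean, the 8 groups ran from Activin-A at 4 hrs (193 CPM), untreated at 4 hrs (213 CPM), Activin-A at 12 hrs (243 CPM) and untreated at 12 hrs (307 CPM) to both factors at 4 hrs (719 CPM), IFN-γ at 4 hrs (762 CPM), both factors at 12 hrs (842 CPM) and IFN-γ at 12 hrs (901 CPM). The 3 lowest groups each overlapped with their neighbour, as did the 4 highest. Untreated cells at 12 hrs stood apart from the groups on either side, and the step from there to both factors at 4 hrs was 412 CPM between means. Within groups the wells varied with a coefficient of variation of 2.97% to 8.53%, where counting error alone gives 3.40% to 7.10%.

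Time itself went with a higher mean in every condition, by the largest log2FC in untreated cells and by the largest difference in CPM with IFN-γ (139.6 CPM, against 93.2 CPM in untreated cells). From 4 to 12 hrs, AA467197 was 1.43-fold higher in untreated wells (log2FC 0.52 ± 0.08, rank 394 of 9332 genes in the fit over all 32 wells). The log2FC with time was 0.34 ± 0.08 in Activin-A wells (0.33 without replicate 1 at 4 hrs), 0.24 ± 0.06 in IFN-γ wells and 0.23 ± 0.06 in wells with both factors. Wells of the 2 times did not overlap in the first 3 conditions, where 5.55%, 5.53% and 7.16% of all genes had higher, non-overlapping wells, and they did overlap with both factors.

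The log2 effect of IFN-γ was smaller at 12 hrs than at 4 hrs by 0.28 ± 0.10 (12 hrs minus 4 hrs, -0.28). In CPM the order was the reverse, because the difference between means was 548 CPM at 4 hrs and 595 CPM at 12 hrs while the untreated mean was itself 93.2 CPM higher at 12 hrs. The Activin-A effect in the presence of IFN-γ differed between times by -0.01 ± 0.09.

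AA467197 was an abundant transcript in these wells. By mean level it ranked 319 of 9137 genes at 4 hrs and 257 of 8971 at 12 hrs. Its biological coefficient of variation in the fit was 5.22% at 4 hrs. For the 200 genes nearest in level the median there was 5.85%, and 4.5% of them were lower. At 12 hrs the coefficient of AA467197 was 5.09%, where the median was 4.51% and 88.5% of the 200 genes were lower.

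The wells and treatments were checked on other genes. Total counts ran from 654539 to 1455074 per well with a median of 988019.5, and 3 counts correspond to 2.06 to 4.58 CPM, far below each AA467197 value. Irf1, a transcription factor gene that interferons induce early, went from a mean of 42.3 to 783 CPM with IFN-γ at 4 hrs (log2FC 4.22, edgeR adjusted p = 3.22e-42). Ccn2, a matrix-associated gene that TGF-β family ligands induce, went from 78.4 to 266 CPM with Activin-A at 4 hrs (1.77, 2.59e-19, and 1.68, 2.92e-23 without Activin-A replicate 1). The 7 of 7 melanocyte markers summed to 321 to 451 CPM in each well. Since AA467197 is known from macrophages and epithelia, their markers were read as well. The 5 of 7 macrophage markers in the table (Ptprc, Cd68, Csf1r, Lyz2 and Fcer1g) summed to 7.74 to 27.5 CPM, with ranges at 12 hrs of 13.2 to 22.4 CPM in untreated and 14.1 to 20.6 CPM in IFN-γ wells. Krt8, the only 1 of 6 epithelial markers in the table, had at most 2 counts in any well.

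Ndufa4, the complex IV subunit whose place the AA467197 protein can take, fell with IFN-γ at 12 hrs. Untreated wells at 12 hrs held 135, 155, 149 and 167 CPM (mean 151 ± 13.6, SD, n = 4), and IFN-γ wells 112, 122, 110.2 and 104 CPM (mean 112 ± 7.64, SD, n = 4). The groups did not overlap, as was the case for 4.63% of all genes with lower wells. The log2FC was -0.43 ± 0.10 (edgeR adjusted p = 0.000786, range over 16 alternatives 0.00016 to 0.00958).

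The same held in the presence of Activin-A. At 12 hrs Ndufa4 stood at 142, 154, 145 and 179.6 CPM with Activin-A alone (mean 155 ± 17.1, SD, n = 4) and at 124, 117, 101 and 113 CPM with both factors (mean 114 ± 9.89, SD, n = 4). The log2FC was -0.43 ± 0.10 (edgeR adjusted p = 0.000971, over 16 alternatives 0.000364 to 0.0166), and lower, non-overlapping wells were found for 5.04% of genes. Activin-A itself left a Ndufa4 log2FC of 0.03 at 12 hrs without IFN-γ (edgeR adjusted p = 0.955) and 0.03 with it (0.976).

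At 4 hrs no such difference was called for Ndufa4. Its log2FC with IFN-γ was 0.08 ± 0.10 (edgeR adjusted p = 0.835), with untreated wells at 135 to 159 CPM and IFN-γ wells at 136 to 176 CPM. The difference of the IFN-γ effect between the times, -0.50 ± 0.14, did not pass the test itself (edgeR adjusted p = 0.0917). Between the times, 2 of the 12 complex IV subunits tested were called with IFN-γ, both lower at 12 hrs, where 8.41% of all genes were called. They were Ndufa4 (log2FC -0.45, edgeR adjusted p = 0.0013) and Cox5a (-0.24, 0.00449), a nuclear-encoded subunit. With both factors it was Ndufa4 alone (-0.31, edgeR adjusted p = 0.0495), where 7.1% of all genes were called. In untreated and Activin-A wells edgeR called 0 of 12 (2 and 1 at an unadjusted p under 0.05), where 4.9% and 6.97% of all genes were called. With so few genes these counts do not separate the conditions. These calls between times were not read under DESeq2 or the other alternatives.

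AA467197 and Ndufa4 thus moved apart at 12 hrs. The ratio of AA467197 to Ndufa4, relative to untreated cells of the same time, was 3.40-fold with IFN-γ at 4 hrs (mean log2 change 1.76, wells 1.59 to 1.86). At 12 hrs it was 3.96-fold (mean log2 change 1.99, wells 1.87 to 2.10). With both factors the ratio was 3.49-fold at 4 hrs and 3.65-fold at 12 hrs, and with Activin-A alone it was 0.869-fold (0.846-fold without Activin-A replicate 1) and 0.775-fold. The ratio is given as a change, since the levels of the 2 genes were not compared per length, and it contains the AA467197 values that led to its choice. mRNA ratios do not measure which protein sits in complex IV.

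**Figure D3:**
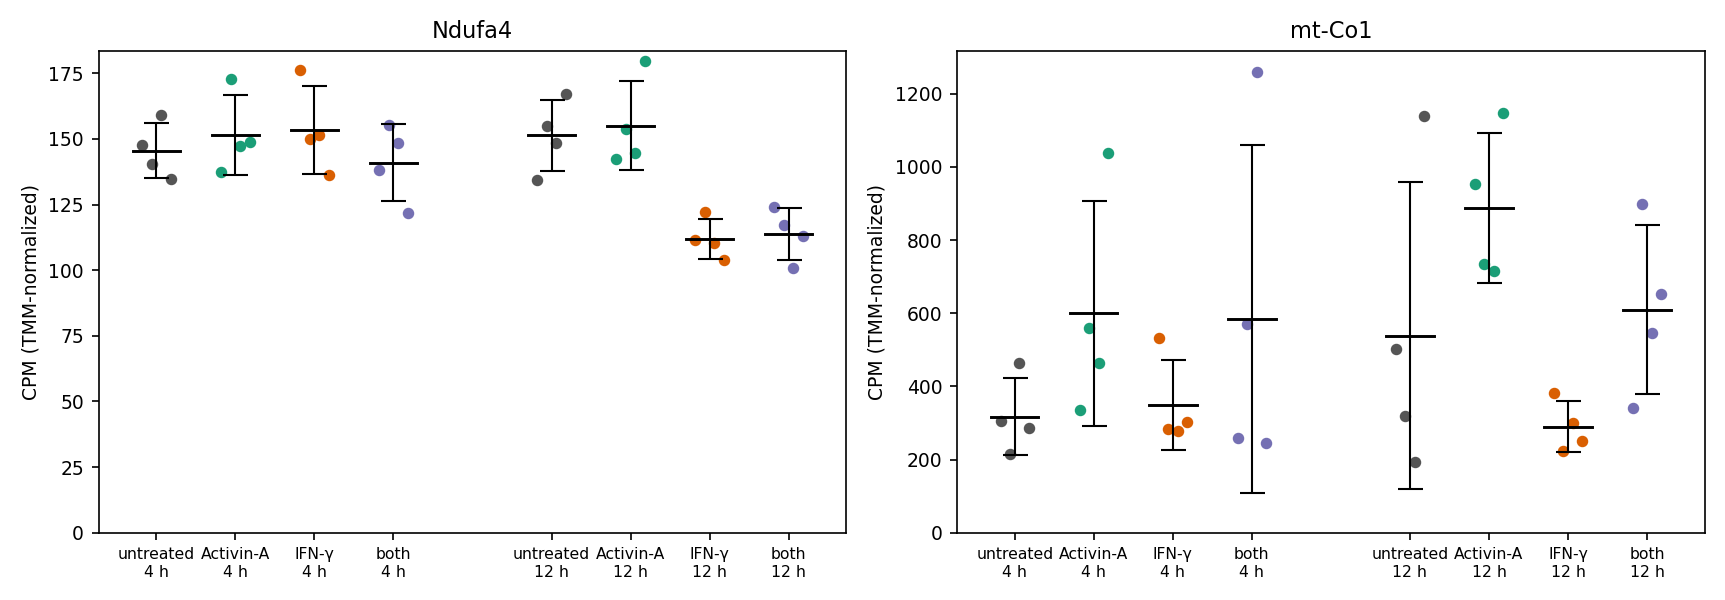
Levels of Ndufa4 (left) and mt-Co1 (right) in CPM (y axes, from 0) by treatment and time (x axes), with points for wells, lines for means and error bars for SD, n = 4 wells. Ndufa4 sits at 101 to 124 CPM in the 8 wells with IFN-γ at 12 hrs and at 135 to 179.6 CPM in the 8 wells without it, whereas mt-Co1 spreads widely within groups.

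Among the other complex IV subunits, mt-Co1 alone passed the test with IFN-γ, and it was lower. Of 18 subunit genes listed, 13 were in the table and 12 could be tested. At 4 hrs 0 of 12 passed with IFN-γ, where edgeR called 5.06% of all genes (2 of 12 at an unadjusted p under 0.05, 0 by DESeq2). Their median log2FC was 0.08, and that of all genes -0.01. At 12 hrs IFN-γ lowered 2 of 12, Ndufa4 and mt-Co1, and raised none, where 9.25% of all genes were called and 2.82% were called lower. DESeq2 called Ndufa4 but not mt-Co1. Cox4i1, a nuclear-encoded subunit, had a log2FC of 0.00 at 4 hrs and 0.12 at 12 hrs (edgeR adjusted p = 1 and 0.503).

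mt-Co1, the catalytic subunit encoded by mitochondrial DNA, varied strongly between wells of one group. At 12 hrs untreated wells held 503, 319, 194 and 1139.9 CPM, and IFN-γ wells 383, 224, 301 and 251 CPM, so that the groups overlapped. edgeR gave a log2FC of -0.89 ± 0.18 (adjusted p = 0.000131), which became -0.28 without untreated replicate 4 at 12 hrs and was then no longer called, and DESeq2 did not call it either. With Activin-A, mt-Co1 was higher at 12 hrs, at 716.8 to 1149 CPM against the untreated wells above (0.74, edgeR adjusted p = 0.00125), and with both factors it was higher than with IFN-γ alone, at 342 to 898 CPM (1.09, 1.97e-05). The first of these log2FC became 1.34 without untreated replicate 4 at 12 hrs, and its call was lost without untreated replicate 3 (0.48), with all 32 wells in the fit and with DESeq2, and the second with DESeq2. The 4 h wells were as uneven, with 216 to 464 CPM untreated and 245 to 1259.99 CPM with both factors. edgeR called this difference (log2FC 0.90, adjusted p = 0.02), but DESeq2 did not. The call was also lost without untreated replicate 1, 2 or 4 or both-factor replicate 3 at 4 hrs. With a well left out the log2FC ran from 0.21 to 1.16.

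**Figure D4:**
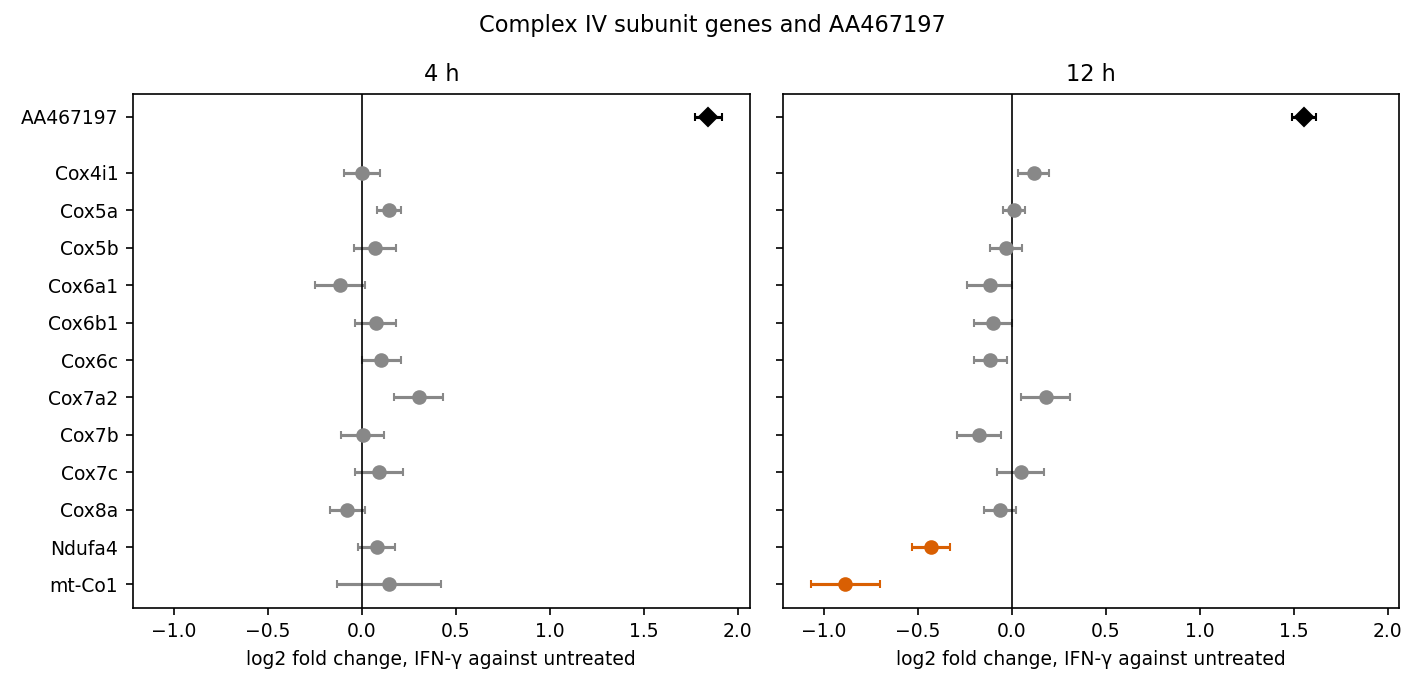
log2 fold change with IFN-γ against untreated cells (x axes) for AA467197 (diamond) and the 12 tested complex IV subunit genes (circles, orange where the edgeR adjusted p is under 0.05) at 4 hrs (left) and 12 hrs (right), with bars for the standard error. AA467197 lies at 1.84 and 1.55, Ndufa4 and mt-Co1 at -0.43 and -0.89 at 12 hrs, and the other subunits between -0.17 and 0.30.

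Genes for assembly and stability of complex IV did not pass the test in any of the 8 comparisons of treatments in which they were counted. Of 31 listed, 30 were in the table, 25 were tested at 4 hrs and 26 at 12 hrs. In all 8 comparisons of single and added factors, edgeR and DESeq2 both called 0. Of all genes, edgeR called 0.81% to 9.62% in these comparisons. At the low shares, 0 calls among 25 or 26 genes say little about this list. At an unadjusted p under 0.05, IFN-γ alone had 1 of 25 at 4 hrs and 5 of 26 at 12 hrs, and the other comparisons had 0 to 3. The median log2FC of the list with IFN-γ was 0.01 at 4 hrs and -0.08 at 12 hrs, against -0.01 for all genes at both times. Lrpprc, which stabilizes mitochondrial mRNAs, came close with a log2FC of -0.48 at 12 hrs (edgeR adjusted p = 0.0892) and is named after its value was seen. Between the times, edgeR called 2 of 28 genes of this list in untreated cells (beside 4.9% of all genes), 2 of 28 with Activin-A (6.97%), 4 of 28 with IFN-γ (8.41%) and 1 of 28 with both factors (7.1%). Named after their values were seen, these were Coa6 (higher at 12 hrs) and Higd1a (lower) in untreated cells, Cmc1 and Coa3 (higher) with Activin-A, the same 2 with Sco2 and Higd1a (lower) under IFN-γ, and Cmc1 (higher) with both factors.

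The third list held genes of mitochondria and metabolism that cytokines are known to induce, and here several rose together with AA467197. Of 12 listed, 10 were in the table and 8 were tested. IFN-γ raised 3 of 8 at 4 hrs (Wars, Cmpk2, Pnpt1) and 6 of 8 at 12 hrs (these and Gch1, Ifi27, Rsad2), and lowered none, where 4.29% and 6.43% of all genes were called higher. Cmpk2 is included in these and later counts, although it had few counts without IFN-γ and passed the filter through the wells with it. The median log2FC of the list was 0.21 and 0.67, against -0.01 for all genes at both times. The list was drawn up with earlier results of these data known, and its count is no independent evidence of a direction. From 4 to 12 hrs edgeR called 4 of 8 higher with IFN-γ (Cmpk2, Gch1, Ifi27, Wars, beside 8.41% of all genes). It called 2 of 8 higher with both factors (Gch1, Wars, 7.1%), 1 lower with Activin-A (Ifi27, 6.97%) and 0 in untreated cells (4.9%). These calls were not read under the alternatives.

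Wars, the cytosolic tryptophanyl-tRNA synthetase, went from 77.95 ± 8.65 to 916 ± 46.0 CPM with IFN-γ at 4 hrs (SD, n = 4, log2FC 3.57, edgeR adjusted p = 5.69e-39). At 12 hrs it went from 85.8 ± 7.28 to 1469 ± 31.0 CPM (log2FC 4.10, 7.34e-73). Its IFN-γ effect thus grew between the times by 0.55 ± 0.13 (edgeR adjusted p = 0.0182, range over 22 alternatives 0.0123 to 0.139), a difference called for 0.579% of 9332 genes, while that of AA467197 had a log2 difference of -0.28 ± 0.10. The call for Wars was lost without untreated replicate 2 or 4 at 4 hrs and without untreated replicate 1 or 2 at 12 hrs.

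Cmpk2, a mitochondrial nucleotide kinase, rose from a mean of 3.003 to 38.2 CPM with IFN-γ at 12 hrs (log2FC 3.43). Its untreated wells at 12 hrs held 6, 7, 1 and 0 counts, against 28 to 49 with IFN-γ. Since Cmpk2 passed the filter on low counts through the wells with IFN-γ, these values are a description without a test. Pnpt1, the mitochondrial polynucleotide phosphorylase, rose by 0.77 at 4 hrs and by 0.75 at 12 hrs on the log2 scale (edgeR adjusted p = 0.00168 and 0.000853). Rsad2, the antiviral protein viperin, rose at 12 hrs from 18.9 to 30.8 CPM (log2FC 0.72, edgeR adjusted p = 0.0141), a call that was lost with DESeq2, without untreated replicate 1 and without IFN-γ replicate 4 at 12 hrs. Sod2, the mitochondrial superoxide dismutase and a frequent cytokine target, had log2FC of -0.02 and -0.06 with IFN-γ at the 2 times (edgeR adjusted p = 0.975 and 0.828). Acod1, which makes itaconate in macrophage mitochondria, was under 1 CPM in each group mean and was not tested.

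Gch1, which starts tetrahydrobiopterin synthesis, shared with AA467197 a lower level under Activin-A. At 12 hrs it stood at 74.2, 75.3, 94.7 and 84.2 CPM in untreated and at 44.2, 45.5, 35.2 and 52.0 CPM in Activin-A wells. The log2FC was -0.89 at 12 hrs and -0.85 at 4 hrs (edgeR adjusted p = 1.04e-06 and 3.62e-05), and it was the only gene of the 3 lists that Activin-A alone lowered at either time, where 0.591% of all genes were called lower at 4 hrs and 1.16% at 12 hrs. Both calls held under all 16 alternatives, the one at 4 hrs with -0.82 without Activin-A replicate 1. With IFN-γ alone for 12 hrs Gch1 rose by 0.36 (edgeR adjusted p = 0.0275), a call lost with DESeq2, on total counts, and without untreated replicate 1 or 2 or IFN-γ replicate 1, 3 or 4 at 12 hrs. With IFN-γ added to Activin-A for 12 hrs, Gch1 rose by a log2FC of 1.02 (edgeR adjusted p = 2.4e-09), to a mean of 89.5 CPM. The IFN-γ effect with Activin-A minus that without it was not called for Gch1.

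Over the 3 lists, Activin-A alone changed 1 of 45 genes at 4 hrs (Gch1, and 2 genes without Activin-A replicate 1 or 3 or untreated replicate 3) and 2 of 46 at 12 hrs (Gch1 and mt-Co1), where 1.64% and 2.41% of all genes were called. Adding Activin-A to IFN-γ lowered 1 of 45 genes at 4 hrs (Gch1) and changed 2 of 46 at 12 hrs (mt-Co1 higher, Wars lower), where 0.81% and 1.03% of all genes were called. Wars fell by 0.21 on the log2 scale at 12 hrs (edgeR adjusted p = 0.02), beside a log2FC of -0.10 ± 0.06 for AA467197 in the same wells. The call for Wars was lost with all 32 wells in the fit and without IFN-γ replicate 1, 2 or 3 or both-factor replicate 2 at 12 hrs. The call for Gch1 at 4 hrs (-0.54, edgeR adjusted p = 0.0224) was lost with DESeq2, without IFN-γ replicate 1 or 3 and without both-factor replicate 1, 2 or 4. Adding IFN-γ to Activin-A changed 4 of 45 at 4 hrs and 6 of 46 at 12 hrs, where 6.07% and 9.62% of all genes were called. Without Activin-A replicate 1 at 4 hrs the former were 3, as Ifi27 was lost (edgeR adjusted p = 0.085). DESeq2 called 2 of the former, Cmpk2 and Wars, and 5 of the latter, all but mt-Co1. Cmpk2 is counted here at both times although it passed the filter through the wells with IFN-γ. Its calls by edgeR or DESeq2 are therefore not read as a test. The mt-Co1 call (-0.54, edgeR adjusted p = 0.0165) was also lost with all 32 wells in the fit. It was lost, too, without Activin-A replicate 1 or 4 or both-factor replicate 1 or 3, and its log2FC ran from -0.78 to -0.34. The Pnpt1 call at 4 hrs (0.63, edgeR adjusted p = 0.0165) was also lost without Activin-A replicate 4 or both-factor replicate 1, 3 or 4.

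None of the nearest genes on chromosome 2 passed the test with IFN-γ alone, and some were called when IFN-γ was added to Activin-A, a difference between the settings that did not pass its own test. The 3 nearest protein-coding genes in the table on each side were read, namely Duoxa1, Shf and Gatm before it and Slc30a4, Bloc1s6 and Sqor after it. In the 5 genes tested, log2FC with IFN-γ alone ran from 0.02 (Shf) to 0.18 (Bloc1s6) at 4 hrs, with edgeR adjusted p of 0.225 to 0.99, and from -0.07 (Gatm) to 0.55 (Shf) at 12 hrs, with adjusted p of 0.199 to 0.801, while Duoxa1 was too low to test. With IFN-γ alone 5.06% and 9.25% of all genes were called at the respective times. The lack of calls among 5 genes thus does not set them apart. For Slc30a4, a zinc transporter that is the next gene downstream on the other strand, Activin-A at 4 hrs gave 523, 562, 539 and 538 CPM against 714, 698, 678 and 659 CPM in untreated wells. It fell by a log2FC of -0.35 (edgeR adjusted p = 0.000338), and by -0.24 at 12 hrs (0.00339), in the direction in which AA467197 differed by -0.14 and -0.33. Slc30a4 also fell when Activin-A was added to IFN-γ at 4 hrs (-0.35, edgeR adjusted p = 0.00038), where AA467197 had a log2FC of -0.08 ± 0.06, but was not called at 12 hrs (-0.13, 0.403). These 3 calls held under all 16 alternatives each, and the first was -0.34 without Activin-A replicate 1 at 4 hrs. In the same comparisons 1.64% (Activin-A at 4 hrs), 2.41% (Activin-A at 12 hrs) and 0.81% (Activin-A added to IFN-γ at 4 hrs) of all genes were called. Against untreated cells, Slc30a4 was also lower with both factors at 4 hrs (-0.20, edgeR adjusted p = 0.0363), a call lost without untreated replicate 1, 2 or 3 or both-factor replicate 2 or 4.

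With IFN-γ added to Activin-A, 1 of the 5 neighbours was called at 4 hrs and 3 at 12 hrs, each of them higher, where 6.07% and 9.62% of all genes were called in either direction. At 12 hrs these were Slc30a4 (0.24, edgeR adjusted p = 0.00145), Bloc1s6 (0.50, 0.000314), a subunit of a complex that builds melanosomes, and Sqor (0.51, 0.0144), the mitochondrial sulfide oxidizing enzyme. The first and the second of these calls held under all 16 alternatives, and that of Sqor was lost with DESeq2, without Activin-A replicate 2 and without both-factor replicate 3. At 4 hrs it was Gatm, an enzyme of creatine synthesis and the next gene upstream (0.39, edgeR adjusted p = 0.0358). This call was lost with DESeq2, on total counts, without Activin-A replicate 1 (0.30, edgeR adjusted p = 0.197) or 4 and without both-factor replicate 1, 2 or 4. The IFN-γ effect with Activin-A minus that without it was called for none of these 4 genes at those times (edgeR adjusted p = 0.711 to 0.927). These log2FC compare to 1.90 and 1.78 for AA467197 at the 2 times.

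Sqor also fell with Activin-A at 12 hrs by -0.49 (edgeR adjusted p = 0.0415), a call lost with DESeq2, with all 32 wells in the fit, and without untreated replicate 2, 3 or 4 or Activin-A replicate 1, 2 or 4 at 12 hrs. Shf, at group means of 12.0 to 20.3 CPM, passed no test.

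The genes whose levels were most like those of AA467197 were searched in the same wells in which AA467197 was chosen for its high level with IFN-γ, so that genes with the same split of wells lead the order. Over the 32 wells and 6988 genes with a mean of at least 20 CPM, Pearson r of log2 CPM was highest for Wars (0.98), Samhd1 (0.98), Psmb10 (0.98), Tgtp2 (0.98), Lap3 (0.98), Apol9a (0.97), Parp14 (0.97) and Gbp2 (0.97). Samhd1 degrades nucleotides, Psmb10 is a subunit of the immunoproteasome, Lap3 is a leucine aminopeptidase, Parp14 an ADP-ribosyltransferase, and Tgtp2 and Gbp2 are interferon-induced GTPases. Tgtp2, Apol9a and Gbp2 have close relatives with which reads can be shared, which makes their own counts uncertain. Without IFN-γ the group means were 0.48 to 2.06 CPM for Tgtp2 and 7.83 to 11.2 CPM for Parp14. Both reached the limit of 20 CPM through the wells with IFN-γ, and their place in the order rests on that split. r exceeded 0.9 for 120 genes and was below -0.9 for 0, and the median was -0.04. The wells share 8 group means, and with these removed r of the 8 genes ran from -0.20 (Wars) to 0.52 (Apol9a), with 0.49 for Samhd1 and 0.44 for Parp14. Over all 6988 genes r with the group means removed ran from -0.66 to 0.70. The order of such high r is not firm, since 1 of the 8 genes stayed among the first 8 with Spearman rho and 1 with the 8 group means.

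By size of response AA467197 sat at the lower end of these genes. With IFN-γ at 4 hrs, Lap3 had a log2FC of 1.496, Samhd1 of 2.75, Psmb10 of 3.31 and Gbp2 of 5.86, against 1.84 for AA467197. At 12 hrs the log2FC was 1.84 for Lap3, 2.66 for Samhd1, 3.77 for Psmb10 and 6.46 for Gbp2, against 1.55 for AA467197. The lowest r belonged to Slc22a23 (-0.85), a transporter family member, Ociad2 (-0.85), Unc5b (-0.84), a netrin receptor, and St3gal5 (-0.82), the GM3 ganglioside synthase. Unc5b, chosen by this r in the same wells and thus given without a test, had a mean of 258 CPM in untreated and 162 CPM in IFN-γ wells at 4 hrs, and of 192 and 138 CPM at 12 hrs.

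**Figure D5:**
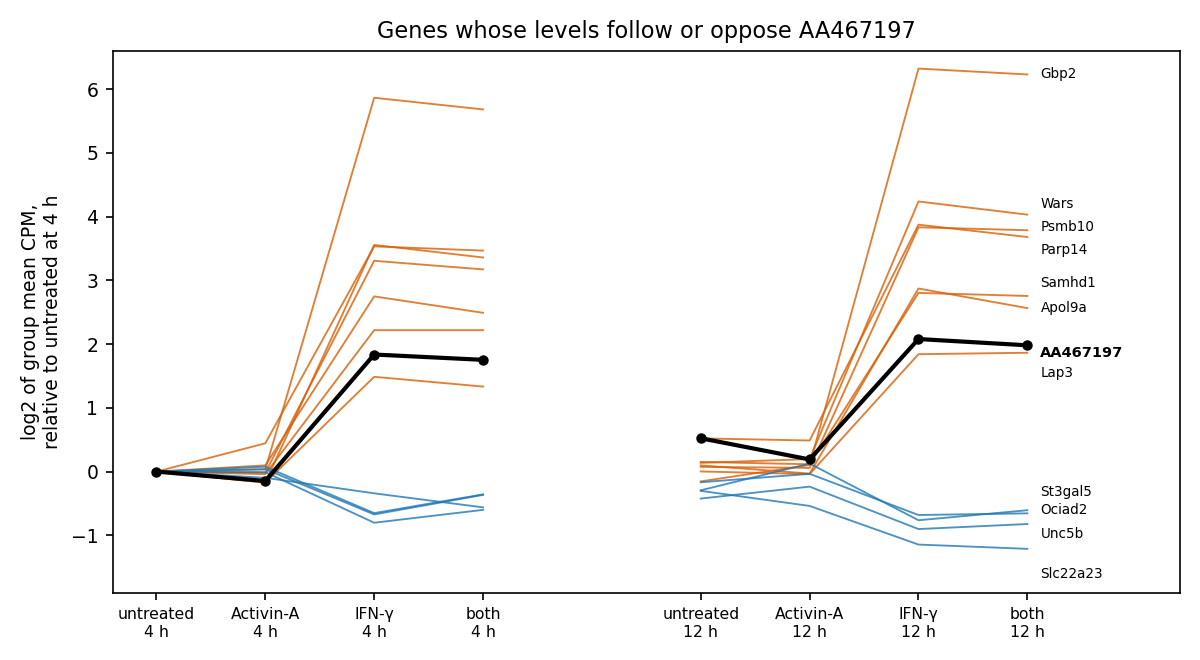
log2 of the group mean CPM relative to untreated cells at 4 hrs (y axis) by group (x axis) for AA467197 (black), 7 of the 8 genes with the highest r (orange) and the 4 with the lowest (blue). Tgtp2 was left out because it was near 0 without IFN-γ, and AA467197 runs near the lower edge of the orange lines with IFN-γ, above Lap3 and below the other 6, and starts 0.52 higher in untreated cells at 12 hrs.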

How the data were processed

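The authors deposited raw read counts per gene for 32 wells (654539 to 1455074 counts). The submitters' processing notes name STAR 2.7.10b, featureCounts, DESeq2 1.36.0 and GRCm39. Annotation, strand setting and handling of molecular identifiers are not given in the sources used here. Of 12451 gene IDs, 12437 matched a symbol (Coa8 as Apopt1, Wars1 as Wars) and 14 did not. Positions are GRCm38, not the build used for counting.

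Genes passing filterByExpr were fitted per time over 16 wells with edgeR 4.0.16 (R 4.3.3, TMM, quasi-likelihood test, Benjamini-Hochberg over all genes, threshold 0.05), and over all 32 wells for time. log2 CPM for likeness used a prior count of 2. DESeq2 1.42.0, other scalings and filters, other sets of wells, a replicate block and leaving out each well were alternatives. The fits were tested on simulated data. The gene, the 3 lists and the motifs were chosen with earlier results of these data known. Named were AA467197, Ndufa4, up to 5 called genes per list plus Cox4i1, Sod2 and Acod1, the 8 highest and 4 lowest correlations, 3 neighbours on each side, and Irf1 and Ccn2 as checks. Ifi27, Lrpprc and the other list genes were named after their values were seen. Ndufa4l2, Nos2, mt-Co2 and mt-Co3 were not analysed here. One motif of the promoter search is not reported here. No pair of wells was a duplicate (chi-square per gene 1.16 to 1.54 over the 48 pairs, but 2.45 to 2.89 for Activin-A replicate 1 at 4 hrs).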

Additional observations from a re-analysis of the deposited data

Results flagged for a closer look

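Among 26 named genes in 8 groups of 4 wells, 13 of 208 combinations had a well far from the other 3 by Dixon's 95% criterion, which chance gives in about 1 of 20 groups, and AA467197 had none. In mt-Co1 with IFN-γ at 4 hrs a well stood at 531 CPM above 278 to 303 CPM. In Gch1 with IFN-γ at 12 hrs a well stood at 94.1 CPM below 107 to 109 CPM. Cmpk2 had a well at 11.6 CPM below 18.0 to 18.8 CPM with both factors at 4 hrs, and a well at 59.4 CPM above 30.2 to 31.6 CPM with IFN-γ at 12 hrs. Pnpt1 had a well at 44.5 CPM below 54.0 to 55.1 CPM with IFN-γ and a well at 37.6 CPM below 48.5 to 48.7 CPM with both factors, each at 4 hrs. With both factors at 12 hrs, Slc30a4 had a well at 717 CPM above 675 to 679 CPM, and Gatm a well at 132 CPM above 104 to 108 CPM. Psmb10 had a well at 327 CPM below 350.2 to 355 CPM with both factors at 4 hrs and a well at 32.5 CPM below 42.1 to 44.0 CPM in untreated cells at 12 hrs. Tgtp2 in untreated cells at 4 hrs had 1.92 CPM in 1 well and 0 in the other 3. Parp14 with IFN-γ at 4 hrs had a well at 113 CPM above 80.8 to 85.7 CPM, and Ociad2 with Activin-A at 4 hrs a well at 93.0 CPM below 122 to 124 CPM.

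The IFN-γ effect differed between times by the test of the difference for Wars and Ifi27, both of the list of cytokine-induced genes and both larger at 12 hrs on the log2 scale, where 0.579% of all genes were called. The difference was 0.55 ± 0.13 for Wars (edgeR adjusted p = 0.0182, lost under 4 of 16 omissions of a well) and 0.52 ± 0.13 for Ifi27 (edgeR adjusted p = 0.0407, lost with DESeq2 and under 13 of 16 omissions of a well, all but untreated replicate 2 and IFN-γ replicate 1 at 4 hrs and IFN-γ replicate 4 at 12 hrs). For Gbp2, which was chosen by its correlation with AA467197 in these wells, the difference of 0.61 ± 0.13 is a description without a test, and it was not read under the alternatives.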

How the results depend on the processing

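The log2FC of AA467197 kept its direction and moved by less than the pooled SD of the wells compared under each alternative, except for the Activin-A effect under IFN-γ at 12 hrs minus 4 hrs (-0.01), which was 0.0082 on total counts without TMM and -0.060 to 0.044 with a well left out. With a well left out, 2 small values moved by over 1.5 times, namely both factors against IFN-γ at 12 hrs (-0.10, then -0.042 without both-factor replicate 1 to -0.141 without replicate 2) and the Activin-A effect with IFN-γ minus without at 4 hrs (0.06, then 0.029 without Activin-A replicate 3 to 0.096 without replicate 4). The replicate numbers did not pair the wells (mean r of same-numbered wells -0.00023 over 112 pairs, 0 over 0.1). With the replicate block, Activin-A against untreated at 4 hrs had 2 list genes called in place of 1, as on total counts, without the filter and with only the 8 wells compared, and the block moved no other count by over 1.5 times. DESeq2 gave fewer calls. For all genes they were 85 in place of 150 (Activin-A at 4 hrs), 45 in place of 74 (both factors against IFN-γ at 4 hrs, and 120 with only the 8 wells), 124 in place of 216 (Activin-A at 12 hrs), 54 in place of 92 (both against IFN-γ at 12 hrs) and 550 in place of 863 (both against Activin-A at 12 hrs). For list genes they were 0 in place of 1 for both against IFN-γ at 4 hrs (2 without the filter or with only the 8 wells), 2 in place of 4 for both against Activin-A at 4 hrs, 1 in place of 2 for Activin-A and for both against IFN-γ at 12 hrs (also 1 with all 32 wells), and 5 in place of 8 for IFN-γ at 12 hrs. With a well left out, list calls were 1 to 2 for Activin-A and 0 to 1 for both against IFN-γ and 2 to 5 for both against Activin-A at 4 hrs, and 1 to 3, 1 to 2 and 5 to 7 at 12 hrs, with 6 to 9 for IFN-γ at 12 hrs. All-gene calls were 47 to 72 for both against IFN-γ at 4 hrs. Of the 8 genes most like AA467197, 1 stayed with Spearman rho, 1 with the 8 group means and 4 to 6 with a replicate number left out. The cause was not tested. Depth limits genes near the filter, not AA467197, whose lowest count was 127.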
